A study of Mus musculus with 8 samples.

Results

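The genes described here encode the secreted ligands, receptors, inhibitors and target genes of 4 developmental signalling systems, TGF-beta, BMP, Wnt and Notch, in mouse kidneys injured by cisplatin. They were chosen by gene name, and the rule used no measured value, though it was written with earlier results of these data known. A protein-coding row of the count table was taken when its gene name began with one of a fixed set of family names (Tgfb, Bmp, Gdf, Inhb, Acvr, Smad, Wnt, Fzd, Notch, Jag, Dll, Hes, Hey, Axin, Lgr, Rspo, Dkk or Sfrp) and it held 8 counts, and Gdf15 was left out. This gave 57 members of 35880 usable genes, 26 of them of the TGF-beta and BMP family, 22 of the Wnt pathway and 9 of the Notch pathway. The name pattern matched 60 more protein-coding genes whose rows held 10 values for 8 named libraries. They include Notch1 to Notch4, Hes1, Smad1 to Smad5, Smad7, Bmp7, Bmpr2, Wnt4, Lgr5, Rspo1 and Rspo3, and were not analysed here.

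TGF-beta, activins and BMPs are dimeric ligands that join type I and type II serine/threonine kinase receptors and signal through Smad proteins. In kidney, TGF-beta is known for driving matrix production and fibrosis, and BMP signalling for opposing it. Wnt ligands bind Frizzled receptors and can stabilise beta-catenin, and Notch receptors are cut after contact with a Jagged or Delta-like ligand on a neighbouring cell, so that their inner part acts with RBPJ on Hes and Hey genes. These systems build the nephron in the embryo and are known to be used again in injured tubules.

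Bulk RNA-seq was performed on whole kidneys of 4 control and 4 cisplatin-treated mice, all WT by genotype and, in the study's methods, male C57/BL6J. The controls received saline and the treated mice cisplatin, a platinum drug that injures the proximal tubule, both by intraperitoneal injection, and kidneys were taken 72 h later. The labels number the controls 1, 2, 3 and 5 and the cisplatin-treated kidneys 1, 3, 4 and 6. Whole kidney mixes all its cell types, so that a loss of cells of a type and less RNA per cell cannot be told apart in any value below.

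Total counts over the usable rows ranged from 13539665 to 16201443 in controls and from 10953338 to 16701599 after cisplatin. Levels are given as CPM, the counts of a gene scaled to a common library size with TMM factors (the trimmed mean of M values), and 3 counts, the lowest level taken as measurable, correspond to at most 0.266 CPM in a control and 0.238 CPM in a cisplatin library. Of the 57 members, 47 passed edgeR's expression filter and were tested. Calls of up-regulation and down-regulation rest on edgeR's quasi-likelihood test. They required an adjusted p under 0.05 and a log2 fold change of 1 or more in size, the study's own thresholds, and SE denotes the standard error of such a value. The second principal component of all tested genes (16.0% of the variance) separated control 5 and cisplatin 4 and 6, called here the second library set, from control 1, 2 and 3 and cisplatin 1 and 3, the first set. Cisplatin 1 and 3 had at most 3 counts of each of the Y-linked genes Kdm5d and Eif2s3y, against at least 274 in every other library, although all mice are described as male. Where the call or direction of a member changes without these 2 libraries, both values are given below or among the results that depend on the processing.

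Markers of the kidney's cell types moved with the treatment. Most lists could be read only in part, since other markers had no usable row. Usable were 8 of 16 endothelial markers and 6 of 14 of fibroblasts, pericytes and smooth muscle. Of the thick ascending limb and distal tubule, 6 of 10 were. All 16 proximal tubule markers fell, and their summed level went from between 71823 and 88762 CPM in controls to between 1667 and 15608 CPM after cisplatin. Of these sums, Kap alone gave 29704 to 35066 CPM in controls and 544, 229, 6220 and 11022 CPM in cisplatin 1, 3, 4 and 6. Of 6 markers of the thick ascending limb and distal tubule 4 fell, from sums of 9441 to 14372 CPM to sums of 632 to 4609 CPM. Of 6 fibroblast, pericyte and smooth muscle markers 3 rose, from sums of 112 to 301 CPM to sums of 371 to 1613 CPM, and all 3 were collagen genes. Among 9 tested macrophage and neutrophil markers 6 rose, with sums of 59.5 to 133 CPM in controls and 148 to 192 CPM after cisplatin, and Mpo was at 0 in every library. Cd14 alone went from a mean of 7.76 to 81.2 CPM. The 3 markers not called were Lyz2 (log2 fold change -0.34), C1qb (0.12) and Csf3r (0.91). None of 8 endothelial markers was called, and their sums overlapped, at 578 to 829 CPM and 360 to 785 CPM. Podocyte marker sums also overlapped (476 to 927 CPM and 582 to 895 CPM, 2 of 7 markers up-regulated), as did those of the collecting duct (858 to 1369 CPM and 733 to 1609 CPM, 2 of 7 up-regulated and 1 down-regulated). Lymphocyte marker sums were low, at 11.2 to 19.1 CPM in controls and 9.13 to 13.7 CPM after cisplatin. Of 5 tested, 1 was up-regulated, Cd79a (log2 fold change 2.40), and 1 down-regulated, Cd8a (-3.43). What part these changes had in the values of the members was not tested.

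**Figure D1:**
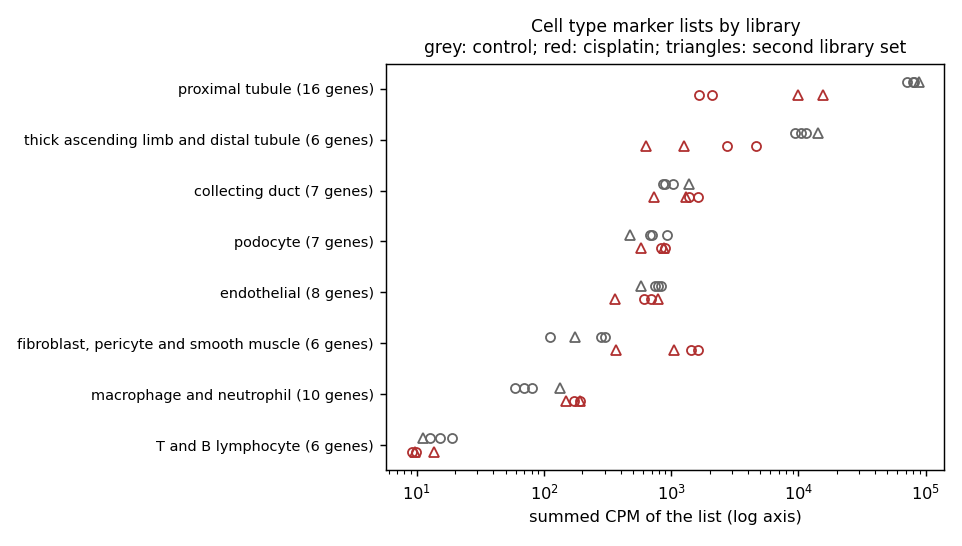
Summed TMM-normalized CPM of each marker list (log axis) in each library. Grey symbols are controls, red symbols cisplatin-treated kidneys, and triangles the second library set. The proximal tubule sums of the 4 cisplatin-treated kidneys, at most 15608 CPM, lie below those of all controls, which are at least 71823 CPM, and the endothelial sums overlap.

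Of the 47 tested members, 12 were up-regulated and 5 were down-regulated after cisplatin. These are 25.5% and 10.6% of the members, beside 19.2% and 15.7% of all 9141 genes tested. In 14 members the lowest treated kidney exceeded the highest control and in 6 the order was the opposite, against 23.7% and 22.5% of all tested genes. The members had a median log2 fold change of 0.38 and all tested genes one of 0.08. Setting Gdf9 and Dkkl1, which were at or under 3 counts in every control, at their lower bounds left the members' median at 0.38. Both bounds lie above that median, so that this replacement could not have moved it. The calls differed in number between roles, as did the members tested. Ligands gave 9 of the 12 up-regulated and 4 of the 5 down-regulated members. They were also a large part of the 47 tested, with 12 TGF-beta and BMP, 7 Wnt and 3 Notch ligands. None of the 6 tested receptors of the TGF-beta and BMP family or the 4 of the Wnt pathway was called. The difference between roles was not tested.

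**Figure D2:**
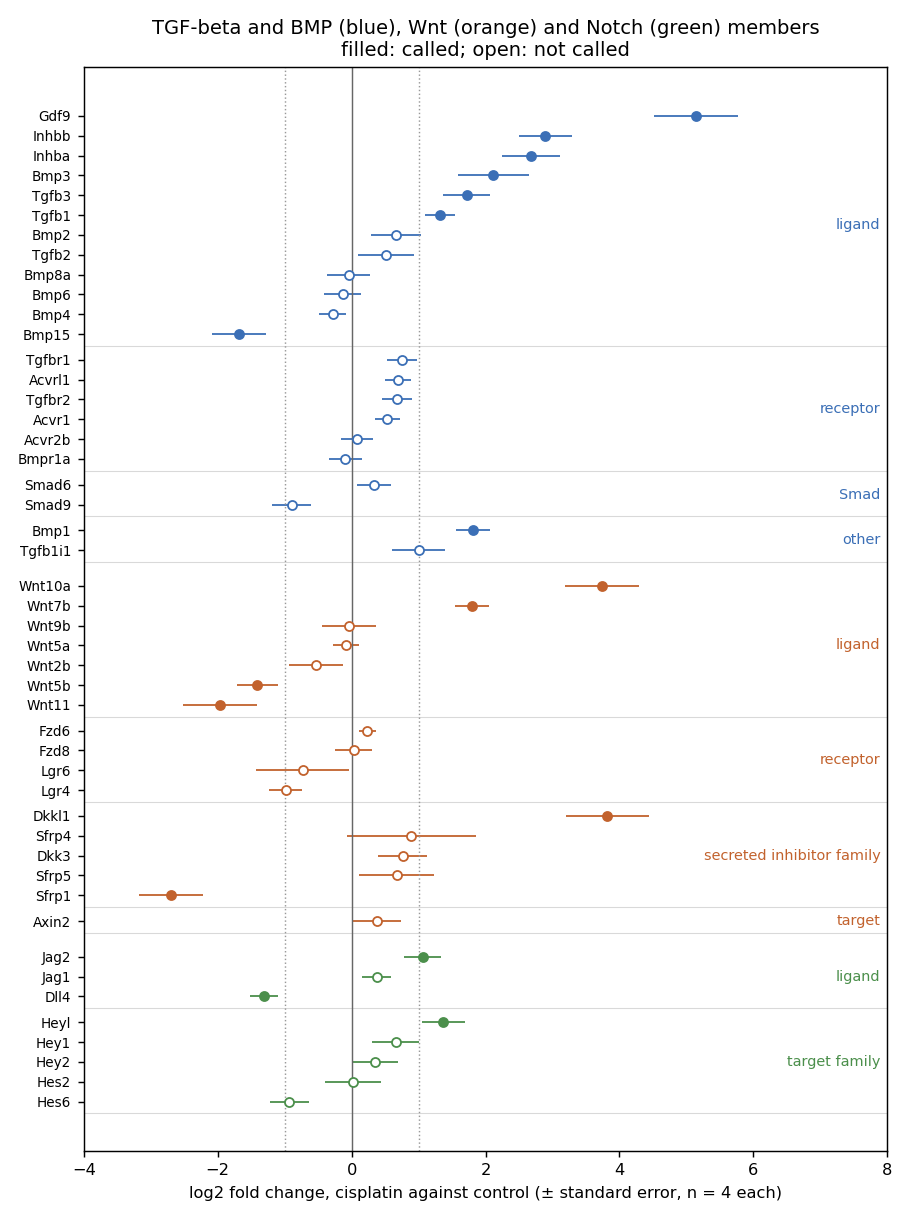
Log2 fold change of each of the 47 tested members, cisplatin against control, with its standard error (4 libraries a group), grouped by pathway and role. Filled points passed both thresholds and dotted lines mark a log2 fold change of 1 in either direction. The values of Gdf9 and Dkkl1, near 0 counts in controls, depend on the prior count of the fit. Ligands lie on both sides, for example Wnt10a at 3.74 and Wnt11 at -1.97, while every receptor lies between -0.99 and 0.75.

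Among the 12 tested ligands of the TGF-beta and BMP family, 6 were up-regulated and 1 was down-regulated, beside 19.2% and 15.7% of all tested genes. The called ligands were Tgfb1, Tgfb3, both activin subunits, Bmp3 and Gdf9 on one side and Bmp15 on the other. The median of the 12 was a log2 fold change of 0.99. The most abundant ligands, Bmp4 and Bmp6, were not called.

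Tgfb1 (ENSMUSG00000002603, chromosome 7 of GRCm38 from 25687002 to 25705077) encodes the main profibrotic cytokine of the family. It stood at 27.6, 29.7, 21.8 and 20.99 CPM in control 1, 2, 3 and 5, and at 63.0, 69.2, 39.97 and 77.6 CPM in cisplatin 1, 3, 4 and 6. The groups did not overlap, and the log2 fold change was 1.32 (SE 0.22, adjusted p = 0.00104). Tgfb3 (ENSMUSG00000021253, chromosome 12 from 86056745 to 86079041), a second isoform, was at 3.19, 3.43, 2.05 and 2.67 CPM in controls and at 13.1, 9.51, 4.54 and 10.2 CPM after cisplatin. It rose by 1.72 on the log2 scale (SE 0.35, adjusted p = 0.00301), with cisplatin 4 the lowest treated kidney for this gene as for Tgfb1. Tgfb2, the third isoform, was not called, at 5.44 ± 1.74 CPM in controls and 7.72 ± 4.09 CPM after cisplatin (mean ± SD, n = 4 each), which gave a log2 fold change of 0.51 (SE 0.42, adjusted p = 0.340). Cisplatin 1 and 3 had 10.1 and 12.3 CPM of Tgfb2, above every control, while cisplatin 4 and 6 had 4.32 and 4.203 CPM, within the range of the controls. Without cisplatin 1 and 3 the estimate for Tgfb2 was -0.35.

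Inhba and Inhbb encode the beta subunits of activin A and activin B, ligands that act through Smad2 and Smad3 as TGF-beta does. Inhbb (ENSMUSG00000037035, chromosome 1 from 119415465 to 119422248) rose from 6.91, 6.54, 6.29 and 2.75 CPM in controls to 37.2, 44.2, 20.9 and 64.9 CPM, a log2 fold change of 2.89 (SE 0.39, adjusted p = 0.000284). Inhba (ENSMUSG00000041324, chromosome 13 from 16011851 to 16031621) rose from 0.974, 0.558, 0.758 and 0.550 CPM to 7.19, 5.50, 2.34 and 3.25 CPM, a log2 fold change of 2.69 (SE 0.43, adjusted p = 0.000755). Neither gene overlapped between the groups. Per kilobase of gene length, the mean level after cisplatin was 9.83 CPM for Inhbb and 0.715 CPM for Inhba, so that Inhbb was the more abundant of the pair. Inhbc, a further inhibin subunit gene, had at most 1 count in any library and was not tested.

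The promoter window of Inhba is shown because it was the only called ligand of this family, among those with a window in the RefSeq table, whose window held the TCF/LEF motif, the element through which beta-catenin acts. The sequence is that of RefSeq on GRCm38.p6 at chr13:16011601-16011854, plus strand, from 250 bases before the start site to 4 bases after it. Capitals mark that motif, CTTTGA, as its reverse complement TCAAAG. This motif, searched on both strands, was present in 16.0% of all 32851 promoter windows of 300 bases.

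Inhba: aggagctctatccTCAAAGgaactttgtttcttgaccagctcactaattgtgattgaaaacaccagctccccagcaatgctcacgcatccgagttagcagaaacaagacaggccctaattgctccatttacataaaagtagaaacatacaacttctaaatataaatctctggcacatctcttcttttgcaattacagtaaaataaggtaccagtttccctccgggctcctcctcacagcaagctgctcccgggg

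Bmp3, a BMP that is known to oppose other BMPs, was at 5.05, 5.90, 5.08 and 2.28 CPM in controls and at 28.7, 32.0, 13.2 and 5.31 CPM after cisplatin. The gene (ENSMUSG00000029335, chromosome 5 from 98854415 to 98884396) was up-regulated with a log2 fold change of 2.11 (SE 0.53, adjusted p = 0.00866), although cisplatin 6 lay within the range of the controls. Without cisplatin 1 and 3 the estimate fell to 1.02 and was not called (adjusted p = 0.0969). Bmp2 was not called, at 2.70 ± 1.21 CPM and 4.26 ± 0.537 CPM (mean ± SD, n = 4 each), with a log2 fold change of 0.66 (adjusted p = 0.169).

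Gdf9 and Bmp15 encode a pair of ligands best known from the oocyte, and in these kidneys they moved in opposite directions at low levels. Gdf9 (ENSMUSG00000018238, chromosome 11 from 53431023 to 53437904) had 1 or 2 counts in every control and 55, 29, 75 and 76 counts in cisplatin 1, 3, 4 and 6. Its treated mean of 3.90 ± 2.19 CPM (SD, n = 4) was at least 14.7-fold higher than 3 counts in a control, and the adjusted p was 0.000144. Bmp15 (ENSMUSG00000023279, chromosome X from 6314107 to 6320721) fell from 1.51, 1.52, 1.29 and 1.10 CPM in controls to 0.637, 0.440, 0.366 and 0.159 CPM. Between 14 and 19 counts a control and between 2 and 14 counts a treated library stand behind that change of -1.68 on the log2 scale (SE 0.40, adjusted p = 0.00650).

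The ligands with the highest level per kilobase in controls were Bmp4, at 27.4 CPM, and Bmp6, at 25.6 CPM, followed by Tgfb1 at 4.96 CPM. Bmp4, a BMP of the collecting system and stroma in development, was at 61.6 ± 6.98 CPM in controls and 50.6 ± 14.6 CPM after cisplatin (mean ± SD, n = 4 each), with a log2 fold change of -0.28 (SE 0.21, adjusted p = 0.282). Bmp6, a regulator of iron balance, was at 99.8 ± 17.1 and 90.9 ± 42.1 CPM, a log2 fold change of -0.13 (SE 0.28, adjusted p = 0.719). Cisplatin 3 had 154 CPM of Bmp6 and the other treated kidneys 65.7 to 76.6 CPM, below all controls. Bmp8a was at 2.21 ± 0.444 and 2.15 ± 0.701 CPM, with an estimate of -0.04. Exons of Bmp4, Bmp6, Tgfb2 and Tgfb3 overlap another gene on the opposite strand in GENCODE M21, as do those of Acvrl1, Bmpr1a, Wnt7b, Wnt11, Wnt5a, Fzd6, Axin2 and Dll4 among the tested members below, while how the counting treated strand is not given in the sources used here, so that reads of such pairs may not be told apart. Bmp10, Gdf1 and Gdf2 had at most 2 counts in any library.

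All 6 receptor genes of the family were expressed and tested, and none was called. For 4 receptors the adjusted p was under 0.05 with a fold below the threshold. Tgfbr1, the type I receptor of TGF-beta, was at 87.7, 101, 96.2 and 82.0 CPM in controls and at 193, 201, 103 and 119 CPM after cisplatin, a log2 fold change of 0.75 (SE 0.23, adjusted p = 0.0210). Tgfbr2, its type II partner, was at 175, 151, 168 and 132 CPM and at 257, 362, 172 and 209 CPM, a log2 fold change of 0.68 (SE 0.23, adjusted p = 0.0330). In both genes cisplatin 1 and 3 were higher than cisplatin 4 and 6, and without cisplatin 1 and 3 the estimates were 0.28 (adjusted p = 0.128) and 0.29 (adjusted p = 0.170). Acvrl1, the endothelial type I receptor ALK1, was at 29.4 ± 4.55 and 47.5 ± 10.2 CPM (mean ± SD, n = 4 each), with no overlap and a log2 fold change of 0.69 (adjusted p = 0.0158). Acvr1, the BMP type I receptor ALK2, had a log2 fold change of 0.53 (adjusted p = 0.0334), again with no overlap. Bmpr1a, at 103 ± 19.8 and 96.8 ± 31.3 CPM, and Acvr2b, at 5.49 ± 0.704 and 5.80 ± 0.932 CPM (mean ± SD, n = 4 each), had estimates of -0.09 and 0.08 with adjusted p of 0.777 and 0.809. Scaled by total library size in place of TMM, Acvr1, Acvrl1, Tgfbr1 and Tgfbr2 were called up-regulated, while that scaling moved the median of all genes up by 0.57 on the log2 scale.

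Only 2 Smad genes could be used. Smad6, an inhibitory Smad that BMP signals induce, was at 17.8, 15.9, 18.7 and 23.7 CPM in controls and at 18.7, 18.4, 22.0 and 37.3 CPM after cisplatin. The groups overlapped and the log2 fold change was 0.34 (SE 0.26, adjusted p = 0.305). Smad9, which carries BMP signals, was at 4.04 ± 0.962 and 2.18 ± 0.408 CPM (mean ± SD, n = 4 each), with no overlap and a log2 fold change of -0.89 (SE 0.29, adjusted p = 0.0282), under the fold threshold. Without control 5, and in the first library set alone, Smad9 was called down-regulated (-1.03 and -1.24). The Smad6 promoter is printed because it was the only one of the 42 windows found for 36 members that held the full palindromic Smad motif GTCTAGAC, which 0.213% of all windows held. It lies at chr9:64022056-64022309 of GRCm38.p6, minus strand, in the same frame as above, and capitals mark the motif, which spans the start site from base -4 to base 4. The short Smad motif GTCT, which the palindrome holds in both orientations, was in 31 of the 36 members. It was in 89.5% of all genes with a window and in 88.0% of all windows.

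Smad6: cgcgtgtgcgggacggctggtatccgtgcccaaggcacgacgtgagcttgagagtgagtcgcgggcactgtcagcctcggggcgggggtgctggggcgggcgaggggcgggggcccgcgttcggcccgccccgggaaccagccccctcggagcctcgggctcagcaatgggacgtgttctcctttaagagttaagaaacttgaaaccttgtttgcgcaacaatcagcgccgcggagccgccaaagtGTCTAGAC

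A pair of further genes carry a family name without being ligand, receptor or Smad. Bmp1 (ENSMUSG00000022098, chromosome 14 from 70474558 to 70520234) encodes a metalloproteinase that trims procollagens. It rose from 18.2, 25.0, 10.54 and 21.8 CPM in controls to 65.6, 73.2, 54.1 and 72.8 CPM, a log2 fold change of 1.81 (SE 0.26, adjusted p = 0.000344). Tgfb1i1, which encodes the focal adhesion protein Hic-5, was at 21.1 ± 8.97 and 42.2 ± 17.02 CPM (mean ± SD, n = 4 each), and its log2 fold change of 1.002 did not pass the test (SE 0.39, adjusted p = 0.0583). Tgfb1i1 was called up-regulated with the library set as a covariate (1.22), in the first set alone (1.05), without cisplatin 4 (1.25), with no expression filter (1.02) and with total library size (1.57). Cisplatin 4 was the treated kidney with the lowest sum of fibroblast, pericyte and smooth muscle markers, at 371 CPM. It was also the lowest for Bmp1, Tgfb1i1, Tgfb1 and Tgfb3. This was not particular to them, since cisplatin 4 was the lowest for Tgfbr1, Bmpr1a, Axin2 and Sfrp1 too, among others. For Bmp3 and Wnt10a cisplatin 6 was the lowest. Whether the marker sum and these values are linked was not tested.

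**Figure D3:**
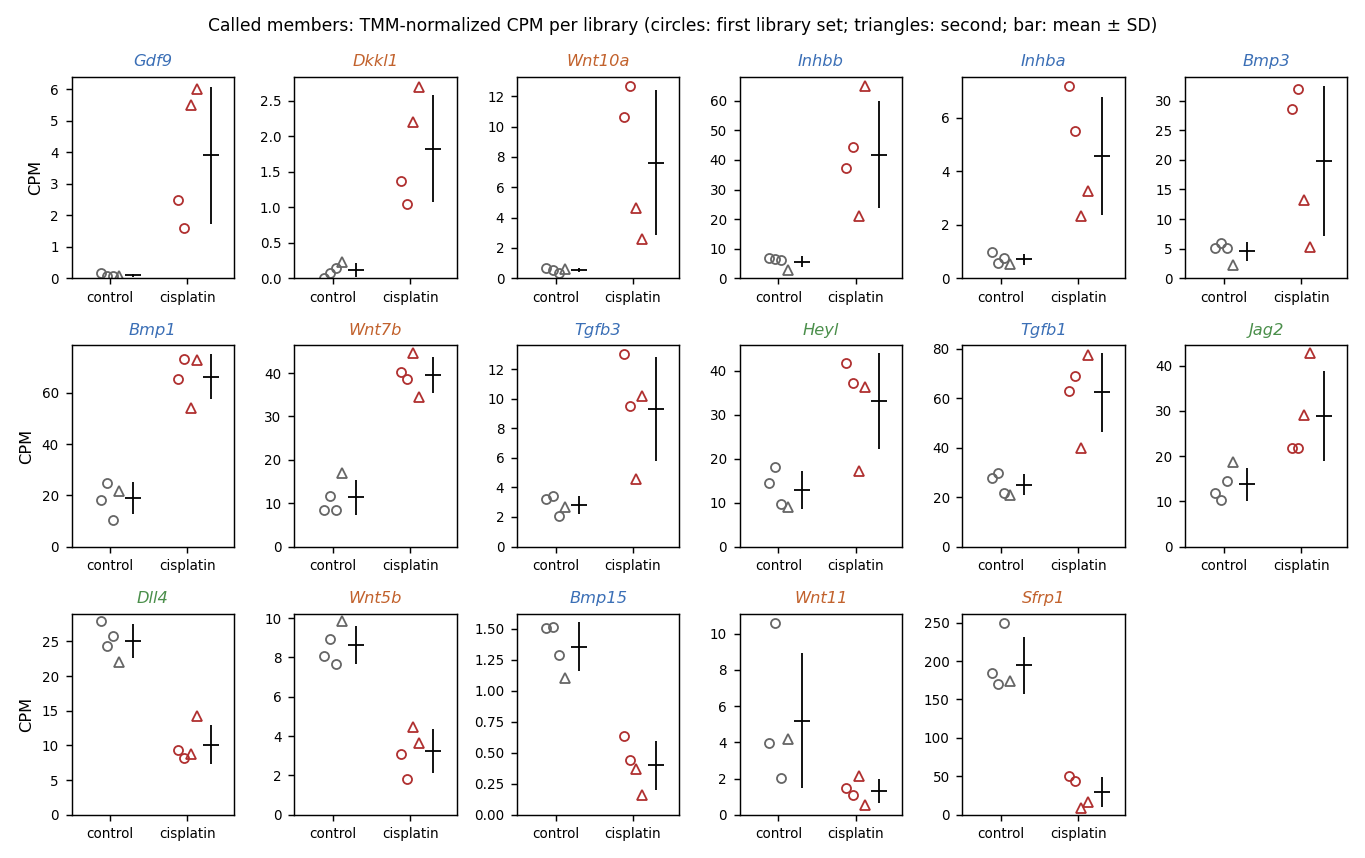
TMM-normalized CPM of the 17 called members in each library, on linear axes that start at 0, ordered by log2 fold change. Circles are the first library set, triangles the second, and the bars give mean and SD. Blue names are TGF-beta and BMP genes, orange Wnt and green Notch. Cisplatin 6 lies at 5.31 CPM of Bmp3, within the controls, whereas all 4 treated kidneys lie far above the controls for Bmp1 and Wnt7b.

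Wnt ligands moved in both directions. Of 7 tested, Wnt10a and Wnt7b were up-regulated and Wnt5b and Wnt11 were down-regulated, and the median of the 7 was a log2 fold change of -0.08. Among all tested genes, 19.2% were up-regulated and 15.7% down-regulated. Wnt3a had 0 counts in every library and Wnt8a 1 count in all.

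Wnt10a (ENSMUSG00000026167, chromosome 1 from 74791516 to 74804179), a ligand of the beta-catenin pathway, was at 0.708, 0.558, 0.379 and 0.629 CPM in controls and at 10.6, 12.6, 4.61 and 2.62 CPM after cisplatin. No treated kidney overlapped a control, and the log2 fold change was 3.74 (SE 0.55, adjusted p = 0.000449). Cisplatin 1 and 3 were the highest, and without them the log2 fold change was 2.67 (adjusted p = 0.000914). Wnt7b (ENSMUSG00000022382, chromosome 15 from 85535437 to 85582473), a ligand made by the collecting duct epithelium in development, was more even. It was at 8.50, 11.6, 8.34 and 16.98 CPM in controls and at 40.3, 38.7, 44.5 and 34.6 CPM after cisplatin, a log2 fold change of 1.80 (SE 0.25, adjusted p = 0.000298). Per kilobase, Wnt7b had the highest level of the tested Wnt ligands after cisplatin, at 8.06 CPM, while in controls Wnt5b, at 3.25 CPM, and Wnt5a, at 2.98 CPM, were above it at 2.32 CPM.

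Wnt5b (ENSMUSG00000030170, chromosome 6 from 119432531 to 119544347) and Wnt11 (ENSMUSG00000015957, chromosome 7 from 98835112 to 98855195) are best known for signals that do not use beta-catenin. Wnt5b was at 8.06, 8.93, 7.66 and 9.83 CPM in controls and at 3.09, 1.81, 4.47 and 3.65 CPM after cisplatin, a log2 fold change of -1.41 (SE 0.30, adjusted p = 0.00394). Wnt11 was at 3.98, 10.6, 2.05 and 4.17 CPM and at 1.501, 1.10, 2.12 and 0.555 CPM, and its log2 fold change was -1.97 (SE 0.55, adjusted p = 0.0150). Wnt5b did not overlap between the groups, whereas cisplatin 4 and control 3 overlapped for Wnt11. Control 2 was the highest library for Wnt11, and without it the log2 fold change was -1.36, still called. Without cisplatin 1 and 3 Wnt11 was not called (log2 fold change -1.93, adjusted p = 0.0672). With total library size in place of TMM neither gene passed the thresholds.

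Promoter windows of both genes are shown because these down-regulated Wnt ligands each held the TCF/LEF motif. The motif was found in 5 of the 36 members with a window and in 18.2% of all genes with one. Capitals mark it, as CTTTGA in Wnt5b and as its reverse complement TCAAAG in Wnt11. The windows lie at chr6:119449383-119449636, minus strand, and chr7:98834862-98835115, plus strand, of GRCm38.p6. Both genes have further annotated starts, and the windows of those starts did not hold the motif.

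Wnt5b: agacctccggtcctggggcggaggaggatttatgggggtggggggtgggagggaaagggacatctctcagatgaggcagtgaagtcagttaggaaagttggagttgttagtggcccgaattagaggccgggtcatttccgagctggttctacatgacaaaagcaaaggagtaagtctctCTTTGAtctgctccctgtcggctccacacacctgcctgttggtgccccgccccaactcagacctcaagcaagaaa

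Wnt11: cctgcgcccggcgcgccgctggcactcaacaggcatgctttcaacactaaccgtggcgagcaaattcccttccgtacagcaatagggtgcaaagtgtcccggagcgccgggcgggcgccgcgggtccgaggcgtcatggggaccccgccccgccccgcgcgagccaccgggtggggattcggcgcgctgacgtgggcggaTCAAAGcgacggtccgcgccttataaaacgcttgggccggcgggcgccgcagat

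The other Wnt ligands were not called. Wnt5a, the ligand most similar to Wnt5b, was at 23.3 ± 4.71 CPM in controls and 22.0 ± 2.80 CPM after cisplatin (mean ± SD, n = 4 each), with a log2 fold change of -0.08 (SE 0.19, adjusted p = 0.758). Wnt9b, which starts nephron formation in the embryo, was at 5.81 ± 2.52 and 5.65 ± 2.55 CPM (mean ± SD, n = 4 each), with an estimate of -0.04 (adjusted p = 0.950). Wnt2b was at 3.43 ± 1.26 and 2.35 ± 0.969 CPM (mean ± SD, n = 4 each), with an estimate of -0.53 (adjusted p = 0.308).

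Among the receptors, Lgr4, which binds R-spondins and thereby strengthens Wnt signals, was the most abundant. It was at 271, 294, 294 and 287 CPM in controls and at 175, 180, 148 and 75.5 CPM after cisplatin, without overlap. The log2 fold change of -0.99 lay just inside the fold threshold (SE 0.25, adjusted p = 0.00886), and without cisplatin 1 and 3 the gene was called, at -1.35 (adjusted p = 0.00356). Lgr4 was also called with DESeq2 (-1.02), with DESeq2's size factors (-1.02), and without control 1 (-1.02), cisplatin 1 (-1.10) or cisplatin 3 (-1.13). The Frizzled genes showed small differences. Fzd6 was at 43.1 ± 3.04 and 50.7 ± 3.13 CPM (mean ± SD, n = 4 each), which gave a log2 fold change of 0.23 (SE 0.13, adjusted p = 0.161) with every treated kidney above every control, and Fzd8 was at 20.9 ± 6.02 and 21.4 ± 6.58 CPM, with an estimate of 0.03 (adjusted p = 0.941). Lgr6 was near the floor, at 0.972 ± 0.735 and 0.567 ± 0.277 CPM (mean ± SD, n = 4 each). The R-spondin genes Rspo2 and Rspo4 had 0 counts in every library.

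The secreted inhibitors held the deepest fall of all members. Sfrp1 (ENSMUSG00000031548, chromosome 8 from 23411502 to 23449632), a soluble Frizzled-like protein that binds Wnt ligands, was at 184, 170, 250 and 174 CPM in controls. In cisplatin 1, 3, 4 and 6 it was at 49.9, 43.6, 9.15 and 16.7 CPM, so that the highest treated kidney was far below the lowest control. The log2 fold change was -2.70 (SE 0.48, adjusted p = 0.00134), and -3.91 without cisplatin 1 and 3 (adjusted p = 5.73e-05). Per kilobase, Sfrp1 went from 44.5 CPM, next to Lgr4 at 48.7 CPM the highest of the Wnt members in controls, to 6.82 CPM.

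No other secreted inhibitor was called down-regulated with all libraries. Sfrp4 was at 1.51, 1.52, 0.455 and 1.10 CPM in controls and at 6.96, 0.660, 0.293 and 0.317 CPM after cisplatin. Cisplatin 1 alone carried the estimate of 0.89 (SE 0.96, adjusted p = 0.466), which became -1.38 without that library. Sfrp4 was called down-regulated without cisplatin 1 and 3, at -1.86 (adjusted p = 0.0396). Sfrp5 was at 0.621 ± 0.5996 and 0.996 ± 0.260 CPM (mean ± SD, n = 4 each), with an estimate of 0.67 (adjusted p = 0.347). Control 2, at 1.52 CPM, was the highest library for Sfrp5, and without it the gene was called up-regulated, at 1.59. Dkk3, a divergent Dickkopf gene tied to tubular stress, was at 28.4, 37.3, 10.9 and 33.1 CPM in controls and at 56.1, 44.3, 28.3 and 57.3 CPM after cisplatin, with a log2 fold change of 0.76 (SE 0.36, adjusted p = 0.107). Dkkl1 (ENSMUSG00000030792, chromosome 7 from 45207519 to 45212147), a Dickkopf-like gene known from the testis, had 0, 1, 2 and 3 counts in controls and 30, 19, 30 and 34 counts after cisplatin. Its treated mean of 1.83 ± 0.757 CPM (SD, n = 4) was at least 6.87-fold higher than 3 counts in a control (adjusted p = 0.000744). Dkk4 had 0 counts in every library.

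Axin2, the usual readout of beta-catenin signalling, was not called. It was at 4.16, 3.91, 2.65 and 2.59 CPM in controls and at 5.23, 5.88, 2.12 and 3.97 CPM after cisplatin, with a log2 fold change of 0.38 (SE 0.36, adjusted p = 0.408). The groups overlapped, and without cisplatin 1 and 3 the estimate was -0.13.

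The 3 usable Notch ligands each behaved differently. Jag2 (ENSMUSG00000002799, chromosome 12 from 112907819 to 112929776), a Jagged ligand, was at 11.9, 10.2, 14.4 and 18.6 CPM in controls and at 21.7, 21.8, 29.1 and 42.8 CPM after cisplatin, with no overlap. It was up-regulated with a log2 fold change of 1.06 (SE 0.28, adjusted p = 0.0105), close to the threshold. Jag2 was not called without control 1 (0.99), without control 2 (0.94), without cisplatin 6 (0.81), with the library set as a covariate (0.88) or in the first library set alone (0.78), and the estimate was 1.39 without cisplatin 1 and 3 (adjusted p = 0.00239). Jag1, the Jagged ligand of injured tubules, was at 55.0, 57.1, 63.9 and 43.7 CPM in controls and at 86.8, 89.6, 55.6 and 52.6 CPM after cisplatin. Cisplatin 1 and 3 were above every control and cisplatin 4 and 6 within their range, and the log2 fold change was 0.37 (SE 0.22, adjusted p = 0.177).

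Dll4 (ENSMUSG00000027314, chromosome 2 from 119325784 to 119335962), the Delta-like ligand of arterial and capillary endothelium, was at 28.0, 24.4, 25.8 and 22.0 CPM in controls and at 9.28, 8.25, 8.71 and 14.3 CPM after cisplatin. Every treated kidney was below every control, and the log2 fold change was -1.31 (SE 0.21, adjusted p = 0.000829). With total library size the estimate was -0.75 and was not called. The 8 endothelial markers tested had a median log2 fold change of -0.13, and the lowest was Kdr, the VEGF receptor, at -0.94.

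Of the 5 tested genes of the Hes and Hey families, which encode the repressors that Notch induces, 1 was up-regulated. Among all tested genes 19.2% were. Heyl (ENSMUSG00000032744, chromosome 4 from 123233556 to 123249875), expressed in vascular smooth muscle, was at 14.5, 18.1, 9.78 and 9.04 CPM in controls and at 41.8, 37.3, 17.3 and 36.2 CPM after cisplatin. Cisplatin 4 lay below control 2, and the log2 fold change was 1.37 (SE 0.32, adjusted p = 0.00596). Hey1 was at 2.09 ± 0.264 and 3.33 ± 1.24 CPM (mean ± SD, n = 4 each), with a log2 fold change of 0.66 (adjusted p = 0.142). Hey1 was called up-regulated without cisplatin 1 and 3 (1.03, adjusted p = 0.0125) and with total library size (1.20), while the estimate in the first library set alone was 0.08. Hey2 was at 3.54 ± 1.18 and 4.52 ± 1.23 CPM, with a log2 fold change of 0.36 (adjusted p = 0.410). Hes6, a family member that counteracts Hes1, was at 52.6, 44.7, 56.3 and 104 CPM in controls and at 29.2, 25.5, 44.9 and 35.6 CPM after cisplatin. Its estimate of -0.93 had an adjusted p of 0.0222 and lay inside the fold threshold (SE 0.29). Hes6 was called down-regulated with the library set as a covariate (-1.07), without control 1 (-1.02), control 2 (-1.08) or control 3 (-1.001), and without cisplatin 4 (-1.10). Hes2 was at 1.32 ± 0.357 and 1.36 ± 0.645 CPM (mean ± SD, n = 4 each), and Hes5 had 0 counts in every library.

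Hey2 is shown as the only tested Hes or Hey gene whose window held the RBPJ motif TGGGAA, here once on each strand, in capitals, the second spanning the start site. The motif, searched as TGGGAA and TTCCCA, was in the windows of 8 of the 36 members. It was in 28.3% of all genes with a window and in 25.6% of all windows. The window lies at chr10:30842780-30843033 of GRCm38.p6, minus strand.

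Hey2: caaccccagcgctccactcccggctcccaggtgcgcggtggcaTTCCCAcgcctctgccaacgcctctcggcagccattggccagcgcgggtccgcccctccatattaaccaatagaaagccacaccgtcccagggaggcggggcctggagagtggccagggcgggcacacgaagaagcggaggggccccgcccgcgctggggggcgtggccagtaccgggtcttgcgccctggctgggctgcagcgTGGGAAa

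Other genes of the same pathways were read from lists written by hand, without the members. Usable rows were found for 18 of 54 TGF-beta and BMP, 25 of 53 Wnt and 18 of 40 Notch entries. Of 56 such genes tested, 15 passed the thresholds upward and 5 downward. Of all 9141 genes tested, 19.2% and 15.7% did so. In the TGF-beta and BMP list 5 of 15 rose and 1 fell, with a median log2 fold change of 0.44. Grem1, a secreted BMP antagonist, had the highest value, 4.93 (SE 0.80, adjusted p = 0.000765), from 0.139 ± 0.164 CPM in controls to 4.48 ± 2.55 CPM (mean ± SD, n = 4 each). Col1a1, a collagen gene that TGF-beta induces and that is also among the fibroblast markers, rose by 3.05, Thbs1, whose product activates latent TGF-beta, by 1.56, Fstl1 by 1.27 and Tgif2 by 1.03 on the log2 scale. Kcp, a kidney protein that enhances BMP signals, fell from 31.6 ± 4.58 to 9.84 ± 1.66 CPM (mean ± SD, n = 4 each), which gave a log2 fold change of -1.68.

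In the Wnt list 4 of 25 genes rose and 4 fell, beside 19.2% and 15.7% of all tested genes, with a median of -0.23. Cd44, an injury-induced hyaluronan receptor, rose by 2.79, the co-receptor gene Ptk7 by 1.59, the feedback inhibitor gene Nkd2 by 1.29 and Tcf7 by 1.26 on the log2 scale. Notum, which removes the lipid of Wnt ligands, had a log2 fold change of -1.66, Sp5, a target of beta-catenin, of -1.49, Ctnnbip1, which encodes a beta-catenin inhibitor, of -1.33 and the co-receptor gene Lrp6 of -1.13, all down-regulated. In the Notch list 6 of 16 genes rose and none fell, with a median of 0.22. Sox9, a transcription factor of regenerating tubules that other signals also induce, rose from 0.957 ± 0.284 to 48.5 ± 13.3 CPM (mean ± SD, n = 4 each), which gave a log2 fold change of 5.65 (SE 0.31). Dlk2 rose by 2.84, Neurl1a by 2.45, Numbl by 2.28 and Nrarp, a feedback gene of Notch, by 1.69 on the log2 scale. For Nrarp the groups overlapped (SE 0.56, adjusted p = 0.0304), as they did for Fstl1 and Nkd2. Nrarp was at 1.06 to 1.52 CPM in controls and at 1.05, 2.91, 4.61 and 8.49 CPM in cisplatin 1, 3, 4 and 6.

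The cisplatin-treated kidneys differed among themselves along the library sets. In 19 of the 47 tested members both first-set libraries, cisplatin 1 and 3, lay above both second-set libraries, cisplatin 4 and 6, and in 12 they lay below. Over all tested genes these shares were 36.2% and 36.7%. Among the 12 up-regulated members, Bmp3, Inhba, Wnt10a and Heyl had the first order and Gdf9, Dkkl1 and Jag2 the second. Within the first library set alone, and without cisplatin 1 and 3, each of the 17 called members kept its direction. In the first set alone the treated kidneys are cisplatin 1 and 3, which lack Y-linked counts, while its controls have them. Without cisplatin 1 and 3 every treated kidney is of the second set, as is only control 5 of the controls. Neither subset can therefore separate the treatment from these differences. Without cisplatin 1 and 3, 12 members passed upward and 6 downward, of which 11 and 4 had been called with all libraries. Of all 9261 genes tested without these 2 libraries, 1984 passed upward and 1899 downward.

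**Figure D4:**
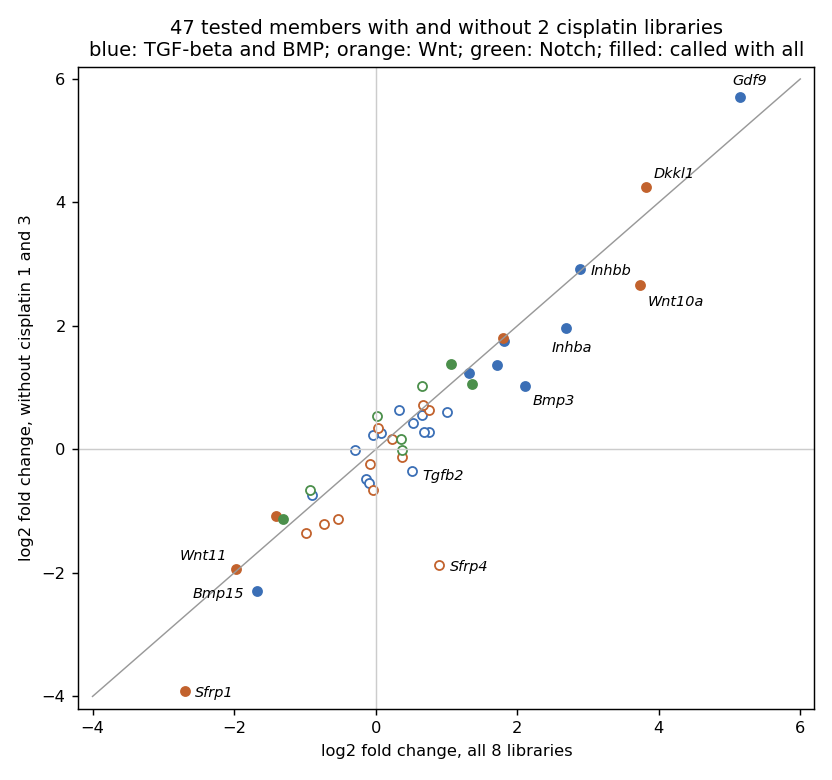
Log2 fold change of the 47 tested members with all 8 libraries (horizontal) and without cisplatin 1 and 3, which lack Y-linked counts (vertical), and the line of equal values. Filled points were called with all libraries. Sfrp4 moves from 0.89 to -1.86 and Bmp3 from 2.11 to 1.02, while Inhbb, at 2.89 and 2.93, stays near the line.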

How the data were processed

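Bulk RNA-seq counts of 8 mouse kidney libraries were analysed, 4 control and 4 cisplatin. Per the labels and the study's methods, the authors trimmed with fastp and aligned with HISAT2 on GRCm38, and the values they deposited are unnormalized read counts of each gene. The counting tool, annotation release and strand setting are not given in the sources used here. The labels name a stranded kit and the methods another maker's kit. The table holds 53715 rows. Only the 35880 rows with 8 counts were used, since the other 17835 held 10 values, and 2 columns of values have no sample. Total counts therefore cover part of each library, and the floor of 3 counts covers counting error only.

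The main test was edgeR 4.0.16 under R 4.3.3 (default expression filter by group, TMM, quasi-likelihood test, Benjamini-Hochberg adjustment over all 9141 genes tested). Calls needed adjusted p under 0.05 with a log2 fold change of 1 or more in size, as in the study's methods, which name DESeq2. The standard error is the log2 fold change divided by the square root of F. Where every control had at most 3 counts, a fold is given as a bound, the treated mean over the largest CPM that 3 counts make in a control. Levels per kilobase use the deposited gene length. Of the 57 members, 56 have the same start, end and strand in GENCODE M21. Promoter windows, found for 36 members, are from RefSeq. The members, marker lists and pathway lists were chosen with earlier results of these data known. Every member is named, with values per library for called members. From the pathway lists, up to 5 called genes per direction are named. The procedure was tested on simulated counts. The alternatives were DESeq2 1.42.0, other normalizations and filters, a test whose null is a log2 fold change up to 1, the replicate number as a block, the library set as a covariate, removal of cisplatin 1 and 3 and of each library in turn, and, chosen after seeing the data, the first library set alone. Nothing in the labels pairs mice, and p-values measure the spread between these kidneys.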

Additional observations from a re-analysis of the deposited data

Results flagged for a closer look

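A library was singled out when its distance to the nearest library of its group, over the group's range, passed Dixon's 95% critical value for 4 samples. Of 94 groups tested (47 members, 2 groups each), 7 did so, and chance alone gives about 1 in 20. Cisplatin 6 had 14.3 CPM of Dll4, against 8.25 to 9.28 CPM in the other treated kidneys. Cisplatin 1 had 6.37 CPM of Hey2, against 3.79 to 3.97 CPM. Control 1 had 0.177 CPM of Gdf9, which is 2 counts against 1 in the other controls. Control 5 had 2.75 CPM of Inhbb, against 6.29 to 6.91 CPM. Cisplatin 3 had 154 CPM of Bmp6, against 65.7 to 76.6 CPM. Cisplatin 1 had 6.96 CPM of Sfrp4, against 0.293 to 0.660 CPM, and control 2 had 1.52 CPM of Sfrp5, against 0.236 to 0.379 CPM. The cause of none of these was tested.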

How the results depend on the processing

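Of the 17 called members, 8 kept their call under each of the 19 alternatives that tested them, and none of the 17 changed direction. Jag2 lost its call under 7 alternatives, the largest number. With total library size in place of TMM, 20 members were up-regulated and 2 down-regulated, as were 23 and 1 of the other pathway genes and 3174 and 803 of all genes, 79.8% of all calls being upward against 55.0% with TMM. With at least 10 counts in every library, 38 members were tested, and 8 were up-regulated and 3 down-regulated. Of all 7485 genes tested in that setting, 1101 were up-regulated and 1064 down-regulated. Against a log2 fold change of 1, 7 members were up-regulated and 1 down-regulated, as were 8 and 2 of the other pathway genes and 885 and 803 of all genes. Without cisplatin 1 and 3, 8 of the other pathway genes were down-regulated, and with single libraries left out 3 to 6, the lowest without cisplatin 6. Among all genes, 1899 were down-regulated without cisplatin 1 and 3. With single libraries left out 1351 to 1533 were, the lowest again without cisplatin 6.

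The numbers 1 and 3 occur in both groups, and how those pairs departed from the means of their groups gave r = 0.25 and 0.28 across genes, against 0.15 to 0.36 for other pairs of the first set. With the replicate number as a block, which rests on these 4 libraries, 16 members were up-regulated and 6 down-regulated, 11 and 5 of them called without it. Of all 9141 genes tested, 1710 were up-regulated and 1404 down-regulated with the block. The block ended the call of Jag2 (0.73). It added up-regulated calls for Bmp2 (1.28), Dkk3 (1.48), Sfrp4 (1.70), Tgfb1i1 (1.33) and Tgfbr1 (1.10) and a down-regulated call for Smad9 (-1.21).

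Estimates of 15 members that were not called changed sign under some alternative. They became -0.000870 (DESeq2) and -0.000635 (DESeq2's size factors) for Hes2, 0.0351 for Wnt9b and 0.0183 for Bmp8a with upper quartile scaling, and with total library size 0.44 for Bmp6, 0.49 for Bmpr1a, 0.26 for Bmp4, 0.49 for Wnt5a, 0.56 for Wnt9b, 0.0455 for Wnt2b and 0.51 for Bmp8a. With the block they were 0.24 for Bmp6, 0.21 for Bmpr1a, 0.23 for Wnt5a, -0.36 for Fzd8, -0.0227 for Acvr2b, 0.91 for Wnt9b, -0.71 for Hes2 and 0.84 for Lgr6. With the library set as a covariate they were 0.0438 for Bmpr1a, -0.15 for Fzd8, -0.0111 for Acvr2b and -0.27 for Hes2. Without cisplatin 1 and 3 they were -0.0157 for Jag1, -0.35 for Tgfb2, -0.13 for Axin2, 0.23 for Bmp8a and -1.86 for Sfrp4. In the first set alone they were 0.21 for Bmp6, 0.0756 for Bmpr1a, -0.24 for Fzd8, -0.0749 for Acvr2b, 0.66 for Wnt9b and -0.63 for Hes2. With single libraries left out, the ranges were -0.28 to 0.0458 for Bmpr1a, -0.21 to 0.0309 for Wnt5a, -0.18 to 0.19 for Fzd8, -0.0300 to 0.16 for Acvr2b, -0.37 to 0.28 for Wnt9b, -0.28 to 0.10 for Bmp8a, -1.38 to 1.24 for Sfrp4 and -0.21 to 0.26 for Hes2. The cause was not tested for any of these. Members under about 1 CPM rest on a few counts a library.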
